A study of Mus musculus with 12 samples.

Results

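The macrophage genes followed here were Emr1, Cd68, Itgax, Trem2, Gpnmb, Lgals3, Mmp12, Clec4f, Mrc1 and Cd163. They were taken by symbol from the deposited expression table, which gave all 10 among its 22276 gene symbols. Their levels were read in every library, with white adipose tissue (WAT) of obese mice as the tissue of interest and brown adipose tissue (BAT), liver and quadriceps muscle beside it.

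RNA-seq had been run on male C57BL/6J mice in 3 groups, each sampled in the 4 organs, which gave 12 libraries. NCD-veh mice ate a normal chow diet (NCD) and received vehicle (veh). HFD-veh mice ate a high-fat diet (HFD) from 8 wk of age and received veh, and HFD-ncls mice ate the HFD and received narciclasine (ncls), a plant alkaloid. Dosing was by weekly oral gavage from 10 wk of age, with ncls at 1 mg/kg and hydroxypropyl cyclodextrin as veh, and tissues of all groups were collected at 17 wk. All mice were thus wild-type and gavaged, and a chow-fed group given ncls is not part of the 12 libraries. Each organ and group had 1 library, and the number of mice behind it is not given in the sources used here. No spread between replicates can be computed, so no difference below carries a standard error or a p-value.

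Macrophages enter adipose tissue as fat mass grows. They gather around dying adipocytes in crown-like structures, take up lipid, and switch on a lysosome and lipid-handling program known from lipid-associated macrophages, in which the receptor TREM2 takes part. Resident macrophages of lean fat carry scavenger and mannose receptors instead, and the liver keeps its own resident macrophages, the Kupffer cells.

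Each member covers one side of this biology. Emr1 (the F4/80 antigen, an adhesion receptor) and Cd68 (a lysosomal glycoprotein) are general macrophage markers. Itgax (integrin CD11c), Trem2 (a lipid-sensing receptor that signals through the adaptor DAP12), Gpnmb (a lysosome-associated glycoprotein), Lgals3 (galectin-3, a sugar-binding lectin) and Mmp12 (macrophage metalloelastase) are known from macrophages of obese fat. Mrc1 (the mannose receptor CD206) and Cd163 (the haemoglobin scavenger receptor) mark resident and alternatively activated macrophages, and Clec4f is a lectin of Kupffer cells. All 10 were annotated as protein-coding genes on the mm9 assembly used by the authors.

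Promoter sequence is shown for 5 members that were more than 2-fold higher in HFD-veh than in NCD-veh WAT and that held a short sequence in common near the start site, a choice made after the matches were seen, followed by Mrc1 and Clec4f, which were not above 2-fold there. The sequences come from RefSeq (GRCm38.p6), which had an entry for 9 of the 10 members. Emr1 had none. Lgals3 had an entry and was also more than 2-fold higher in HFD-veh than in NCD-veh WAT. It did not hold the common sequence, and its promoter is not shown. Each stretch runs 5′ to 3′ along the gene from position -150 to position 25 around the start site. On the plus strand lie Gpnmb (chr6:49036368-49036542), the second of the listed Mmp12 starts (chr9:7347224-7347398), Trem2 (chr17:48346251-48346425), Itgax (chr7:128129400-128129574) and Mrc1 (chr2:14229264-14229438). On the minus strand lie Cd68 (chr11:69666146-69666320) and Clec4f (chr6:83656092-83656266). Capitals mark matches to TGANTCA and to GAGGAA or its reverse complement TTCCTC, a core recognised by the macrophage factor PU.1. TGANTCA is a loosened form of the AP-1 site TGA(C/G)TCA, with any base in the middle, and the Trem2 match does not have C or G there.
Gpnmb: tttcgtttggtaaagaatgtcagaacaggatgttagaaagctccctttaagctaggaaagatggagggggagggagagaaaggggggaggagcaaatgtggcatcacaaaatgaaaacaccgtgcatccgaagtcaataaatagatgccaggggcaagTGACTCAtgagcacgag
Mmp12: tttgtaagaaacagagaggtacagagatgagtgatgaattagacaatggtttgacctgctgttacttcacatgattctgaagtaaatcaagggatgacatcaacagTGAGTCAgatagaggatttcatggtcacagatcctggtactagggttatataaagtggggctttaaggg
Trem2: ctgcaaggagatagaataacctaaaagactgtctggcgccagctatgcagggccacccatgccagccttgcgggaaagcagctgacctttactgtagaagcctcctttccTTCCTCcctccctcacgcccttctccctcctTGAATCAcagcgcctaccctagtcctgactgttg
Itgax: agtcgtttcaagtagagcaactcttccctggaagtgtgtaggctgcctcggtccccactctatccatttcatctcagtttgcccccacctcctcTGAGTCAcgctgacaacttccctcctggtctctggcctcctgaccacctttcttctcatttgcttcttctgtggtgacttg
Cd68: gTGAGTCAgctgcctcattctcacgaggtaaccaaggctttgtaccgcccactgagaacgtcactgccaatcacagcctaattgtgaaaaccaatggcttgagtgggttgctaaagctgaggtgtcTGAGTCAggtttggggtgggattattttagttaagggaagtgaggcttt
Mrc1: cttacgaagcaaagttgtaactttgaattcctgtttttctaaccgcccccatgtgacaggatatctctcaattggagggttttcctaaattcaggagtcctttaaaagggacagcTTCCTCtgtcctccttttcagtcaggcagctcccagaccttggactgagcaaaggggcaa
Clec4f: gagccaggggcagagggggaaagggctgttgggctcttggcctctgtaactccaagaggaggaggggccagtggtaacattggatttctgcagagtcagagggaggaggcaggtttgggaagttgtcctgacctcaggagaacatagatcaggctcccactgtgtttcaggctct

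TGANTCA was present within the whole window, 250 bases before to 50 bases after the start, in 5 of the 9 members with a promoter. It began at position 9 in Gpnmb, at -44 in Mmp12, at -9 in Trem2, at -56 in Itgax and at both -149 and -24 in Cd68. Of all 32851 promoters in the table, 7.81% held it. Lgals3, 4.69-fold higher in HFD-veh than in NCD-veh WAT, held neither TGANTCA nor GAGGAA in this window. TGANTCA was thus not in every member with a promoter that was higher with HFD in WAT. GAGGAA on either strand was in Cd68, Mmp12, Mrc1 and Trem2, 4 of 9 members, against 28.3% of all promoters. It began at -225 and 30 in Cd68, outside the printed stretch, and at -86 of the first Mmp12 start, which is not printed. In Mrc1 it began at -180, -167 and -35, and in Trem2 at -40. Mmp12 was counted over all its listed starts, while the shares count each promoter by itself. AGGTCA, the nuclear receptor half-site, was in Clec4f, Mmp12 and Trem2 against 16.3%. In all, 12 motifs were searched on both strands, and each of the others was found in at most 1 of the 9. These were a longer PU.1 motif, GAGGAAGT, which contains GAGGAA, the E-box CACGTG, the MITF box TCATGTG, the TFE3 motif TCACGTG, which contains CACGTG, the C/EBP motif TTGCGCAA, an NF-kB motif, the TATA box TATAAA, the cyclic AMP element TGACGTCA and the STAT motif TTCNNNGAA. These matches are letters in a window. No binding was measured here.

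Values are in FPKM, which scales the fragments of a gene by transcript length and library depth. A difference is the log2 ratio of FPKM + 0.1 between libraries, given for genes at 1 FPKM or more in at least 1 of the libraries compared. A gene is called higher or lower past 2-fold, and the share of all genes past 2-fold in the same direction is given beside the members' count. The comparisons within an organ share libraries: HFD-veh stands in both the diet and the ncls comparison. From the lowest FPKM steps the libraries hold roughly 18400000 (HFD-ncls WAT) to 26000000 (HFD-veh muscle) fragments, and 9130 to 12052 genes per library reached 1 FPKM. Adipoq was at 1599.8 to 2849 FPKM in WAT, Ucp1 at 739.6 to 769.8 in BAT, Apoa1 at 9999 to 13444 in liver and Acta1 at 22749 to 24220.1 in muscle, so the defining genes of each labelled organ were present.

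Some libraries held transcripts of genes typical of another organ, and how they came to be there was not tested. From 19 hepatocyte genes, the liver share came to 0.581% in HFD-veh muscle and to 0.00233%, 0.0885% and 0.238% in NCD-veh, HFD-veh, then HFD-ncls WAT. From 12 skeletal muscle genes, the muscle share came to 1.79%, 0.752% and 0.123% in NCD-veh, HFD-veh, then HFD-ncls BAT and to 0.0626% in HFD-veh liver. With these shares subtracted, every member at 1 FPKM or more kept its call with diet and with ncls. Clec4f, below that level outside liver, went from 0.207 to 0.113 FPKM in HFD-veh muscle and from 0.0901 to 0.0612 FPKM in HFD-ncls WAT.

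Across organs, 9 of the 10 genes were highest in WAT in every group, and Clec4f was highest in liver. In NCD-veh mice, Emr1 was 8.46 times higher in WAT than in liver, 19.6 times higher than in BAT and 44.6 times higher than in muscle. Cd68 kept the same order, with WAT 7.60, 13.7 and 37.3 times higher than liver, BAT and muscle. Gpnmb was 6.57 times higher in WAT than in BAT on chow and 47.9 times higher in HFD-veh mice. The summed FPKM of all 10 genes was 201, 795 and 958 in NCD-veh, HFD-veh, then HFD-ncls WAT. It was 11, 37.7 and 8.76 in BAT, 38.9, 27.9 and 21.7 in liver, and 4.75, 7.22 and 7.60 in muscle. The sums thus went up with diet in WAT, BAT and muscle and down in liver. With ncls they went down in BAT and liver and up in WAT and muscle. With 1 library each, neighbouring organs in this order cannot be said to differ beyond their spread.

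**Figure D1:**
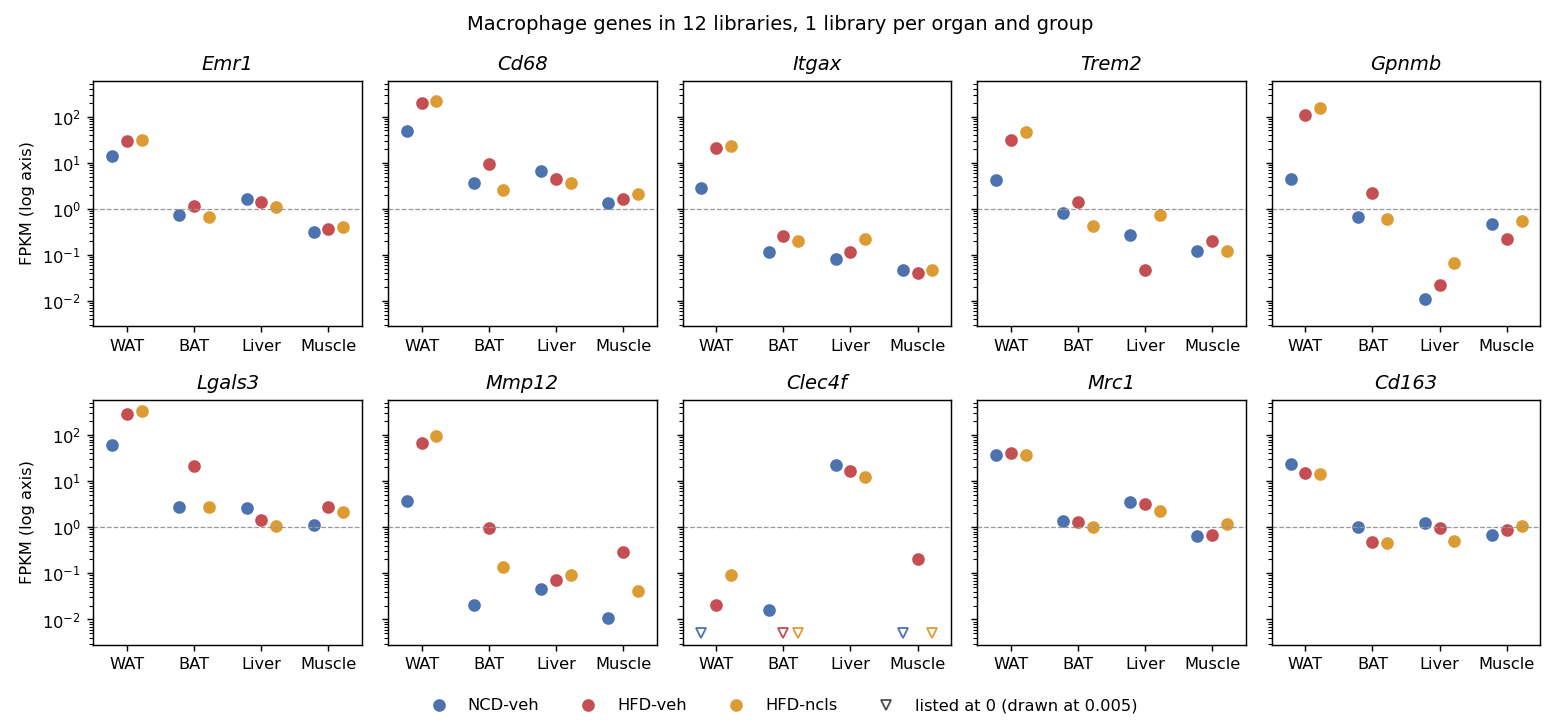
FPKM of each of the 10 genes (log axis) in WAT, BAT, liver and muscle, 1 point per library, coloured by group, with open triangles for values listed at 0 and a dashed line at 1 FPKM. All genes but Clec4f are highest in WAT. The HFD-veh and HFD-ncls points of Gpnmb (106 and 153 FPKM) and Mmp12 (66.1 and 95.7 FPKM) stand far above NCD-veh in WAT.

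The first question was how the HFD changed macrophage genes in WAT. Of the 9 members at 1 FPKM or more, 7 were over 2-fold higher in HFD-veh than in NCD-veh WAT and none was over 2-fold lower. Of all 12208 genes compared, 5.24% were over 2-fold higher and 3.87% over 2-fold lower. The median difference of the 9 was 2.23 on the log2 scale, with a range of -0.65 to 4.56, against 0.03 for all genes. Clec4f stayed below 1 FPKM. In bulk tissue, fewer cells of a type and less RNA per cell cannot be told apart, and the same holds for more.

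The general markers rose less than the markers of obese fat. Emr1 (chr17:57498109-57622952 on mm9) was at 14.0, 29.7 and 30.9 FPKM in NCD-veh, HFD-veh, then HFD-ncls WAT. It was 2.11-fold higher with HFD, a log2 difference of 1.08, just past the threshold. Cd68 (chr11:69477715-69479655) was at 49.5, 198 and 222 FPKM, 3.99-fold higher in HFD-veh than in NCD-veh. For both genes the chow library was the low one and both HFD libraries were close to each other.

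Gpnmb and Mmp12 changed the most. Gpnmb (chr6:48986517-49020928) was at 4.42, 106 and 153 FPKM in NCD-veh, HFD-veh, then HFD-ncls WAT, 23.5-fold higher with HFD. Mmp12 (chr9:7344381-7369499) was at 3.71, 66.1 and 95.7 FPKM, 17.4-fold higher. For these genes 99.9% and 99.8% of all genes compared had a smaller difference. About 349 fragments stood behind the chow value of Gpnmb and about 278 behind that of Mmp12.

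Trem2, Itgax and Lgals3 followed. Trem2 (chr17:48485726-48493472) was at 4.26, 31.6 and 46.2 FPKM, 7.28-fold higher with HFD. Itgax (chr7:135273061-135294171) was at 2.79, 20.4 and 22.7 FPKM, 7.08-fold higher. Lgals3 (chr14:47987426-48005835), the most abundant member in WAT, was at 61.4, 288 and 338 FPKM, 4.69-fold higher. All 5 markers of obese fat were thus several-fold above chow in both HFD libraries.

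The resident markers did not pass 2-fold. Mrc1 (chr2:14151041-14253684) was at 37.2, 39.8 and 36.2 FPKM, a log2 difference of 0.10 with HFD. Cd163 (chr6:124254669-124280545) was at 24.1, 15.3 and 14.0 FPKM, with a difference of -0.65, so that 8.28% of all genes compared lay below it. In chow WAT, Mrc1 and Cd163 were above Emr1 per transcript length, and in HFD-veh WAT Cd163 was below it.

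Set against Emr1 in the same library, the members separated further. The ratio of Gpnmb to Emr1 was 0.316, 3.58 and 4.96 in NCD-veh, HFD-veh, then HFD-ncls WAT. The ratio of Mmp12 was 0.265, 2.22 and 3.10, that of Trem2 0.304, 1.06 and 1.5, and that of Itgax 0.199, 0.684 and 0.734. Cd68 and Lgals3 moved less, from 3.53 to 6.64 and 7.17 and from 4.38 to 9.69 and 10.9. The ratio of Mrc1 went the other way, at 2.65, 1.34 and 1.17, and that of Cd163 was 1.72, 0.514 and 0.453. With Cd68 as the denominator instead, the log2 difference of the ratio between HFD-veh and NCD-veh remained above 2 for Gpnmb (2.56) and Mmp12 (2.13), but came to 0.83 for Itgax, 0.87 for Trem2 and 0.23 for Lgals3.

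**Figure D2:**
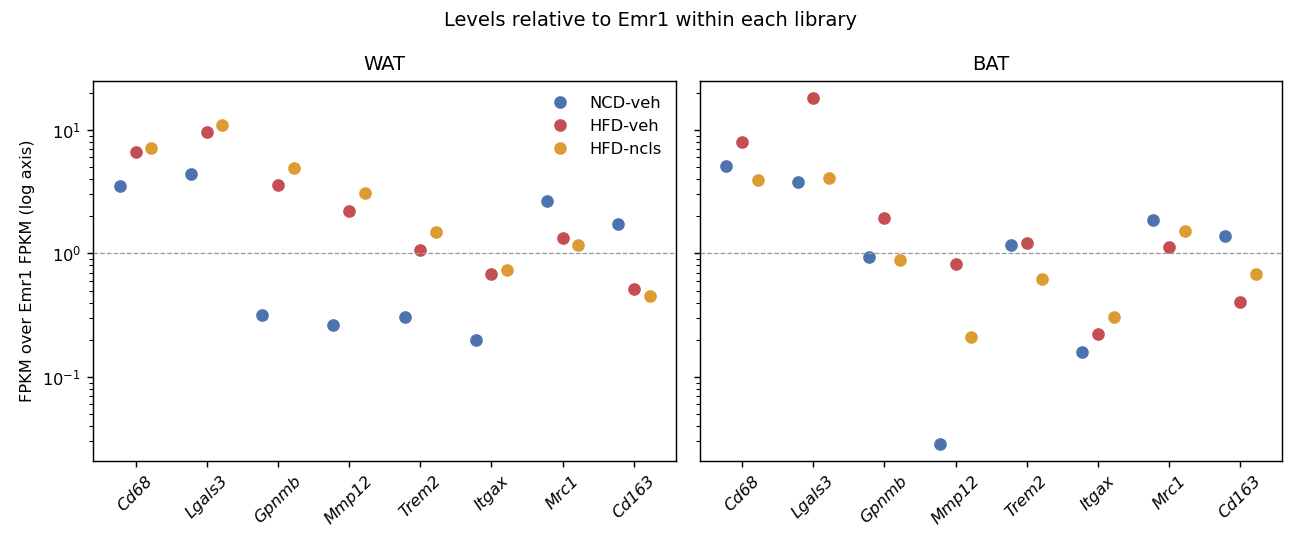
Ratio of each gene's FPKM to the FPKM of Emr1 in the same library (log axis) in WAT and BAT, 1 point per library, coloured by group, with a dashed line at a ratio of 1. In WAT the ratios of Gpnmb, Mmp12, Trem2 and Itgax are higher in both HFD libraries than in chow and those of Mrc1 and Cd163 lower, while in BAT the ratio of Lgals3 is 3.76, 18.0 and 4.05.

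Genes that work with the members were read from lists that exclude the members. Of 23 further general macrophage and monocyte genes, 5 were over 2-fold higher with HFD in WAT and none lower, with a median of 0.63. Among them were Mpeg1 (perforin-2, a pore-forming protein of phagocytes) at 1.77, Ctss (cathepsin S) at 1.60, Fcgr1 (the high-affinity IgG receptor) at 1.43 and Cx3cr1 (the fractalkine receptor) at 1.15. Of 22 lipid and lysosome genes of lipid-associated macrophages, 8 were higher and 1 lower, with a median of 0.78. Atp6v0d2, a subunit of the lysosomal proton pump, went from 0.933 to 32.3 FPKM, a difference of 4.97. Spp1 (osteopontin) differed by 3.03, Plin2 (a lipid droplet coat protein) by 1.74 and Ctsk (cathepsin K) by 1.66. The lower one was Apoe (apolipoprotein E), at 2520, 1115 and 1265 FPKM in NCD-veh, HFD-veh, then HFD-ncls WAT. In NCD-veh mice, Plin2 was at 95.2 FPKM in WAT and 322 FPKM in liver, and Apoe was at 13714 FPKM in liver. The part of adipocytes and other cells in the WAT values of this list was not tested.

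Some partners of TREM2 were also higher with HFD in WAT. Of 10 genes of TREM2-DAP12 signalling, 3 were over 2-fold higher with HFD in WAT and none lower, with a median of 0.74. Tyrobp, which encodes DAP12, was at 75.0, 162 and 194 FPKM, a difference of 1.11 with HFD. Lat2, an adaptor that becomes phosphorylated downstream, differed by 2.55 and Pik3ap1, an adaptor for PI3-kinase, by 1.29, whereas Inpp5d (the phosphatase SHIP1) came to 0.92. Among 16 measured growth factor, receptor and transcription factor genes, 2 were higher, Irf8 (an interferon regulatory factor) by 1.58 and Csf2ra (a GM-CSF receptor chain) by 1.03, and none was lower.

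Resident-type genes behaved otherwise. Of 18 resident and alternatively activated macrophage genes beside Mrc1 and Cd163, 1 was over 2-fold higher with HFD in WAT and 4 were lower, with a median of -0.33. Chi3l3 (Ym1, a chitinase-like lectin) was the higher one, at 2.18. Ccl24 (eotaxin-2, a chemokine) fell by 1.99, Timd4 (a receptor for dying cells) by 1.56 and Fcna (ficolin A) by 1.30 on the log2 scale. Of 10 inflammatory genes at 1 FPKM or more, 3 were higher: Saa3 (an acute-phase protein) by 3.01, Ccl2 (a monocyte chemoattractant) by 2.57 and Il1rn (the IL-1 receptor antagonist) by 2.14.

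The families of Mmp12 and Lgals3 did not move as a whole. Of 8 other measured metalloproteinase and inhibitor genes, 2 were higher and 1 lower. Mmp3 (stromelysin-1) and Timp1, an inhibitor of the family, were higher by 1.98 and 1.73, and Mmp9 (gelatinase B) fell by 2.36. Of 8 other measured galectins none was higher and 3 were lower, among them Lgals12, an adipocyte galectin, which fell by 1.03.

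Markers of other cell types also differed between the WAT libraries. All 5 lymphocyte genes at 1 FPKM or more were over 2-fold lower in HFD-veh, and their list summed to 18.3, 5.99 and 12.7 FPKM over its 10 genes. Of the libraries compared, Ms4a1, Cd79a and Cd3g reached 1 FPKM only in NCD-veh, where they were high. Their place among the genes compared depends on that library. The 5 mesothelial genes, of which 4 were lower, summed to 207, 80.2 and 87.3 FPKM. Of 5 neutrophil genes 1 was higher and 1 lower, and the 10 summed to 11.3, 43.8 and 38.7 FPKM. None of 7 endothelial genes passed 2-fold in either direction. Of 8 adipocyte genes 1 was higher, the hormone Lep at 300.2 and 1199 FPKM, and 1 was lower, Cfd (adipsin) at 8163 and 653 FPKM. The part of these cell types in the members' differences was not tested.

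The second question was whether ncls changed these genes in WAT of HFD mice. None of the 9 members passed 2-fold in either direction between HFD-ncls and HFD-veh WAT, where 1.49% of 12152 genes were higher and 0.214% lower. Their median difference was 0.16, with a range of -0.14 to 0.55, and the median of all genes was 0.04. The 5 markers of obese fat and both general markers were all slightly above HFD-veh, and Mrc1 and Cd163 slightly below. Trem2 was 1.46-fold, Mmp12 1.45-fold and Gpnmb 1.44-fold higher, and 95%, 94.7% and 94.6% of all genes had smaller differences. Emr1 was 1.04-fold, Itgax 1.11-fold, Cd68 1.12-fold and Lgals3 1.17-fold higher. With 1 library per group, it cannot be said whether differences of this size exceed the spread between mice.

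The HFD-ncls library thus stayed apart from chow. Against NCD-veh WAT, 7 of the 9 members were over 2-fold higher in HFD-ncls WAT, where 7.11% of all genes were, and the differences were 5.08 for Gpnmb, 4.65 for Mmp12, 3.41 for Trem2, 2.98 for Itgax, 2.46 for Lgals3, 2.16 for Cd68 and 1.13 for Emr1. Mrc1 stood at -0.04 and Cd163 at -0.78. Chow was the lowest of the 3 WAT libraries for all 7 genes past 2-fold, and HFD-ncls the highest.

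In WAT, related genes of the general, TREM2-DAP12 and lipid lists moved little with ncls, and some inflammatory genes passed 2-fold. None of the 23 general macrophage genes (median 0.24) and none of the 10 TREM2-DAP12 genes (median 0.26) passed 2-fold. Of the 22 lipid and lysosome genes 1 did, Spp1, which was at 0.432, 4.26 and 12.5 FPKM in NCD-veh, HFD-veh, then HFD-ncls. Among 12 inflammatory genes 3 were higher and 1 was lower. Saa3 was at 7.56, 61.8 and 132 FPKM, and Ccl2 at 8.22, 49.3 and 22.8 FPKM, a difference of -1.11 with ncls. Of 4 measured lymphocyte genes 3 were higher with ncls, as were 13 of 18 measured hepatocyte genes. Of the libraries compared, the lymphocyte genes Cd79a and Cd3g reached 1 FPKM only in HFD-ncls, where they were high, and their place depends on it.

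**Figure D3:**
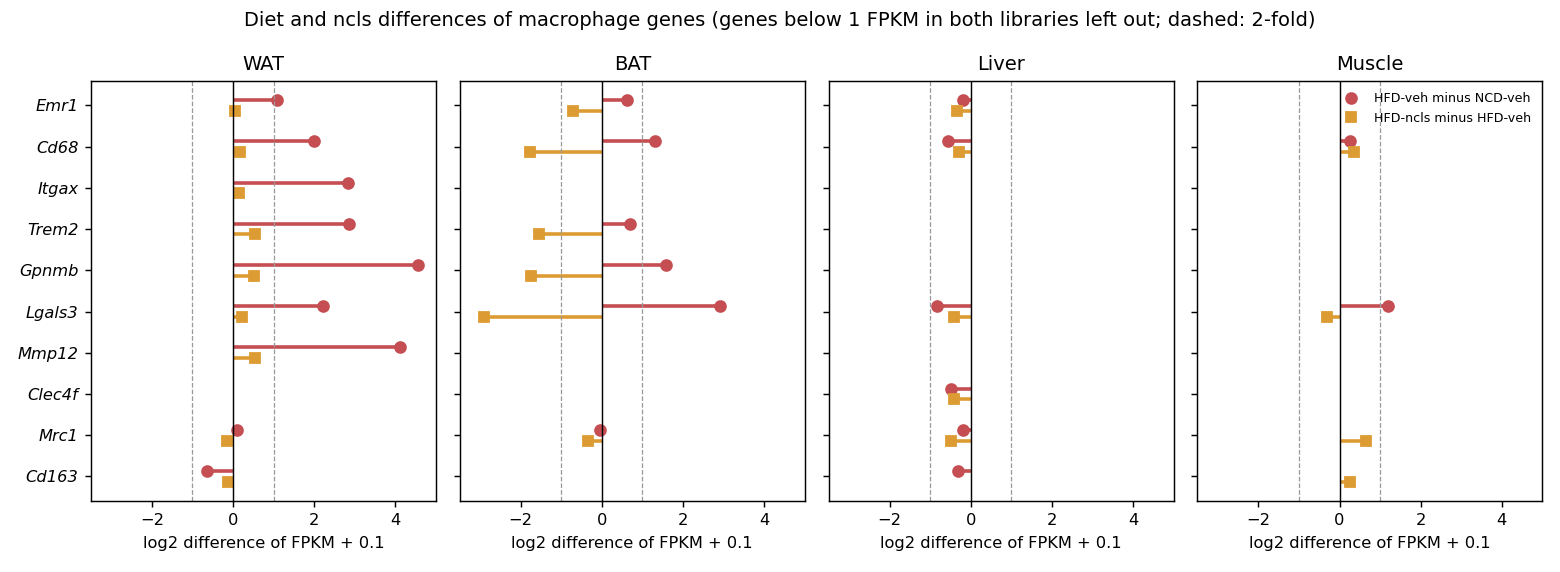
Log2 difference of FPKM + 0.1 for each gene, HFD-veh minus NCD-veh (circles) and HFD-ncls minus HFD-veh (squares), in the 4 organs, 1 library per group, with dashed lines at 2-fold. Genes below 1 FPKM in both libraries are not drawn. In WAT the circles of 7 genes lie beyond 2-fold and no square does, and in BAT the squares of Cd68, Trem2, Gpnmb and Lgals3 lie beyond 2-fold on the lower side. Emr1, Trem2 and Gpnmb are drawn in BAT only because they reached 1 FPKM in HFD-veh.

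In BAT the members were low, and the HFD-veh library was the high one for most of them. Of the 6 members at 1 FPKM or more, 3 were over 2-fold higher in HFD-veh than in NCD-veh BAT, where 2.28% of 10444 genes were higher and 2.01% lower, and none was lower. Between HFD-ncls and HFD-veh, 4 of 6 were over 2-fold lower and none was higher, where 1.70% of 10331 genes were lower and 0.261% higher. With a pseudocount of 1, Gpnmb with diet (0.95) and Trem2 with ncls (-0.77) were within 2-fold, and the other calls in BAT held. The median differences were 1.00 with diet and -1.65 with ncls, against -0.04 and -0.02 for all genes. Emr1, Trem2 and Gpnmb reached 1 FPKM only in the HFD-veh library, so that their place among the genes compared depends on that library being high. Only Lgals3, Cd68 and Mrc1 were at 1 FPKM or more in all 3 BAT libraries.

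Lgals3 showed the widest swing. It was at 2.68, 20.8 and 2.68 FPKM in NCD-veh, HFD-veh, then HFD-ncls BAT, 7.52-fold higher with HFD and 7.52-fold lower with ncls, so that HFD-ncls and chow differed by -0.00043 on the log2 scale. About 730 fragments stood behind the HFD-veh value and about 98.1 and 93.6 behind the others. Cd68 was at 3.62, 9.15 and 2.60 FPKM, 2.49-fold higher with HFD and 3.43-fold lower with ncls. For both genes the HFD-veh library stood alone.

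The lower members had the same order. Gpnmb was at 0.673, 2.22 and 0.592 FPKM, a difference of 1.59 with HFD and -1.75 with ncls, on about 65.8, 208 and 55.3 fragments. Trem2 was at 0.830, 1.40 and 0.413 FPKM, with 0.69 and -1.55, on about 23.2, 37.7 and 11.1 fragments. Emr1 was at 0.715, 1.16 and 0.663 FPKM, with 0.62 and -0.72. In each of these genes HFD-veh was the highest library and HFD-ncls the lowest.

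Mmp12 stayed just under the minimum, at 0.0206, 0.947 and 0.140 FPKM, on about 1.91, 84.3 and 12.4 fragments. Itgax was at 0.115, 0.259 and 0.202 FPKM. Mrc1 differed least, at 1.34, 1.30 and 1.01 FPKM, a difference of -0.05 with HFD and -0.33 with ncls. Cd163 was at 0.993, 0.471 and 0.456 FPKM, below chow in both HFD libraries. The resident markers thus did not share the high HFD-veh values.

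Further macrophage genes in BAT were counted in the same way. Of 17 general macrophage genes 3 were over 2-fold higher with HFD and none lower (median 0.37), and 2 were lower with ncls and none higher (median -0.57). Ctss was at 3.98, 10.2 and 4.04 FPKM and Mpeg1 at 1.58, 3.67 and 1.69 FPKM. Tyrobp was at 9.29, 19.7 and 12 FPKM, a difference of 1.08 with HFD and -0.71 with ncls, and was 1 of only 2 TREM2-DAP12 genes at 1 FPKM or more. Ccl2 was at 0.175, 6.14 and 1.40 FPKM, a difference of 4.51 with HFD and -2.06 with ncls. None of 19 lipid and lysosome genes at 1 FPKM or more passed 2-fold with diet or with ncls, and the medians were -0.09 and 0.01. Of this list, Atp6v0d2 and Spp1 stayed under the minimum in BAT, at 0.0915, 0.621 and 0.0797 FPKM and at 0.144, 0.752 and 0.0904 FPKM, with HFD-veh the high library as for the members.

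The BAT libraries differed in the levels of skeletal muscle genes. Of 12 skeletal muscle genes 9 were lower with HFD and 11 lower with ncls, and the list summed to 2506, 1016 and 186 FPKM in NCD-veh, HFD-veh, then HFD-ncls. After subtraction of the muscle share Lgals3 was at 2.66, 20.8 and 2.68 FPKM and Cd68 at 3.59, 9.14 and 2.60 FPKM, as large a difference as before. Lep was at 0.597, 3.68 and 2.13 FPKM in BAT against 1199 in HFD-veh WAT, and Lgals3 in HFD-veh WAT was 13.8 times its level in HFD-veh BAT. The part of white fat in the BAT values was not tested. None of 7 endothelial genes passed 2-fold, and no lymphocyte gene reached 1 FPKM.

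Lower with ncls in BAT, these genes were not lower with ncls in WAT. Cd68, Trem2, Gpnmb and Lgals3 differed by -1.78, -1.55, -1.75 and -2.91 in BAT and by 0.16, 0.55, 0.53 and 0.23 in WAT. The difference between the organs was not tested.

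In liver the Kupffer cell gene led. Clec4f (chr6:83594536-83606181 on mm9) was at 22.9, 16.3 and 12.2 FPKM in NCD-veh, HFD-veh, then HFD-ncls liver. In the other organs it was listed at 0 in 5 libraries and was at most 0.207 FPKM, in HFD-veh muscle, on about 13.3 fragments. That library also held the liver share given above, and in HFD-veh and HFD-ncls WAT about 1.01 and 4.09 fragments stood behind its 0.0205 and 0.0901 FPKM.

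All members at 1 FPKM or more were lower in both steps in liver, none of them past 2-fold. Of 6 with diet and 5 with ncls none passed, where 2.86% of 10016 genes were higher and 2.27% lower with diet and 1.00% of 9956 genes were higher and 1.31% lower with ncls. The medians were -0.40 and -0.42, against 0.04 and 0.02 for all genes. Cd68 was at 6.51, 4.36 and 3.55 FPKM and Mrc1 at 3.60, 3.13 and 2.21 FPKM. Emr1 was at 1.66, 1.44 and 1.12 FPKM, and the ratio of Clec4f to Emr1 was 13.8, 11.3 and 10.9. For each of these genes chow was the highest and HFD-ncls the lowest library.

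Between HFD-ncls and NCD-veh liver, 2 of 6 members were over 2-fold lower, where 2.62% of 9961 genes were. Lgals3 was at 2.66, 1.46 and 1.07 FPKM, a difference of -1.24, and Cd163 at 1.24, 0.978 and 0.512 FPKM, a difference of -1.13. Cd163 reached 1 FPKM only in the chow library, where it was high, so that its place among the genes compared depends on that library. Both genes were at most 2.66 FPKM in liver, and their calls were not recomputed with a larger pseudocount, which shrinks the differences of low genes. Clec4f differed by -0.91, Cd68 by -0.86, Mrc1 by -0.68 and Emr1 by -0.53. Itgax, Trem2, Gpnmb and Mmp12 were at most 0.737 FPKM in liver, and about 6.66, 1.13 and 18.6 fragments stood behind the liver values of Trem2.

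Other Kupffer cell genes gave a similar picture. Of 14 measured, 6 were over 2-fold lower in HFD-ncls than in NCD-veh liver and 1 was higher, with a median of -0.89. Of all 9961 genes compared, 257 were over 2-fold higher. In the single steps fewer passed: 2 of 14 were lower and 1 higher with diet, and 1 of 13 was lower and none higher with ncls. Folr2 (a folate receptor) was at 6.86, 4.23 and 1.65 FPKM and Timd4 at 1.98, 0.993 and 0.575 FPKM. Cd5l (a secreted scavenger protein) was at 26.9, 13.4 and 9.99 FPKM and Vsig4 (a complement receptor) at 12.5, 8.52 and 5.16 FPKM. Marco (a scavenger receptor) and Il18bp (an IL-18 antagonist) were lower by 1.02 and 1.07 on the log2 scale. Marco was at 2.37, 0.824 and 1.12 FPKM, so it was lower with diet but not with ncls. The higher one was Xlr3a, at 1.03. Timd4, Marco and Xlr3a were at most 2.37 FPKM in the libraries compared, and these counts were not recomputed with a larger pseudocount. C6 and Nr1h3 were above chow by 0.26 and 0.32, and the part of hepatocytes in their values was not tested. Of 15 general macrophage genes 1 was lower, Tyrobp at 12.6, 10.2 and 5.51 FPKM, and the median was -0.74. None of 19 hepatocyte genes was higher and 3 were lower, with a median of -0.27.

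**Figure D4:**
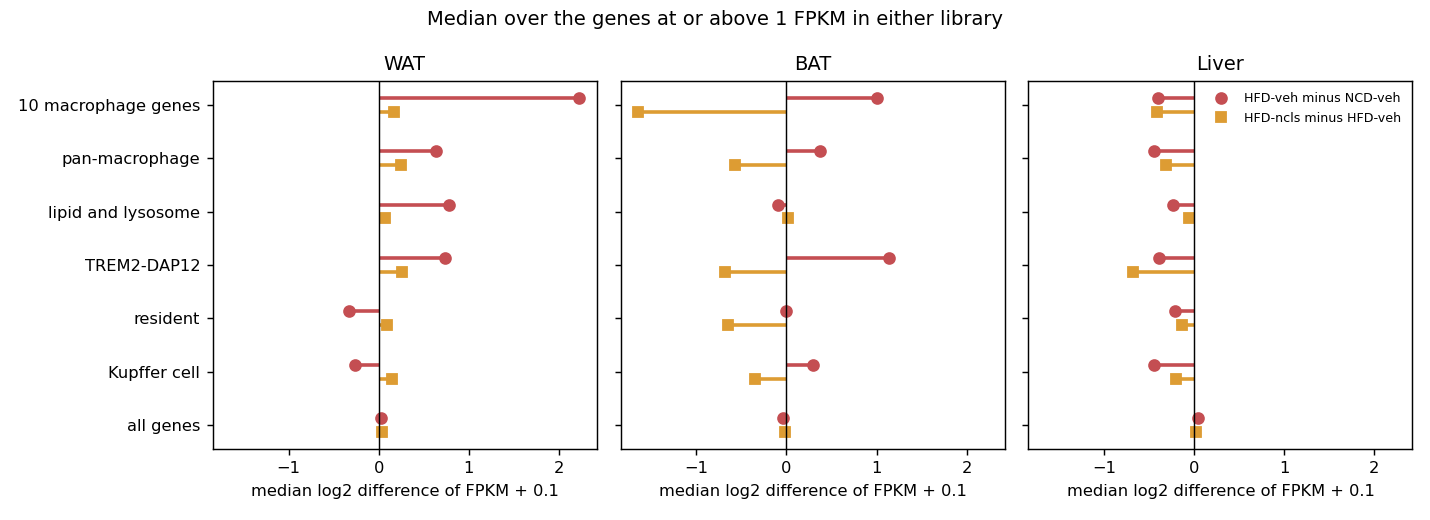
Median log2 difference of FPKM + 0.1 over the genes at 1 FPKM or more in either library, for the macrophage members, 5 related gene lists and all genes, in WAT, BAT and liver, with circles for HFD-veh minus NCD-veh and squares for HFD-ncls minus HFD-veh. The members' medians are 2.23 and 0.16 in WAT, 1.00 and -1.65 in BAT and -0.40 and -0.42 in liver, and the TREM2-DAP12 medians in BAT and liver rest on 2 genes. In BAT, Emr1, Trem2 and Gpnmb enter the members' medians only because they reached 1 FPKM in HFD-veh.

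In muscle most members were near or below 1 FPKM. Of 2 members measured with diet 1 was over 2-fold higher, where 3.14% of 9587 genes were higher and 0.970% lower. It was Lgals3, at 1.13, 2.74 and 2.18 FPKM in NCD-veh, HFD-veh, then HFD-ncls muscle, 2.31-fold higher with HFD. With a pseudocount of 1 the log2 difference was 0.81, within 2-fold. Subtraction of the liver share left its HFD-veh value at 2.73 FPKM. Adipocyte genes moved in the same libraries: of 8 measured, 4 were over 2-fold higher and 1 lower with HFD, with a median of 0.97. Adipoq was at 11.4, 21.1 and 14.3 FPKM, Lep at 0.133, 5.04 and 1.60 FPKM and the hormone gene Retn at 9.24, 19.3 and 7.91 FPKM. Lgals3 in HFD-veh WAT was 105 times its level in HFD-veh muscle, and the part of white fat in the muscle value was not tested. Cd68 was at 1.33, 1.61 and 2.08 FPKM. None of the 4 members measured with ncls passed 2-fold, where 1.27% of 9694 genes were higher and 2.53% lower. The hepatocyte list was a part of both shares: its 20 genes were all higher in HFD-veh muscle than in either other library, and with liver and muscle shares subtracted 131 genes were higher and 76 lower with ncls, instead of 123 and 245.

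The resident markers in muscle were highest in HFD-ncls. Mrc1 was at 0.640, 0.692 and 1.15 FPKM, a difference of 0.66 between HFD-ncls and HFD-veh. Cd163 was at 0.686, 0.858 and 1.05 FPKM, a difference of 0.26. Both reached 1 FPKM in muscle only in the HFD-ncls library, where they were high, and their place among the genes compared depends on it. Emr1 was at 0.314, 0.357 and 0.398 FPKM, and the other members were at most 0.535 FPKM. Of 13 further resident-type genes 3 were over 2-fold higher with ncls and 1 lower, with a median of 0.62, and of 11 general macrophage genes none passed, with a median of 0.58. The lower one was Arg1, a urea cycle enzyme abundant in liver (788 FPKM in HFD-veh liver), at 0.0578, 5.92 and 0.0559 FPKM in muscle, where the HFD-veh library held the liver share. Of 8 fibroblast and stromal genes 2 were over 2-fold higher with ncls and none lower, with a median of 0.53, and the list summed to 116, 115 and 179 FPKM. Col1a1 (a collagen chain) was higher by 1.15. The part of stromal cells in the values of the resident markers was not tested.

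Genes with the most similar pattern were taken for each member by Pearson's r of log2(FPKM + 0.1) over the 12 libraries, among 13638 genes. These values describe libraries of 4 organs, and the level in WAT against the others sets most of them. For Emr1 the first was Cybb (the phagocyte NADPH oxidase subunit gp91phox, r = 0.996), followed by Clec4a3 and Tbxas1, and for Mrc1 it was Csf1r (the receptor for macrophage colony-stimulating factor, r = 0.996), followed by Zyx and Znf41-ps. Csf1r was at 57.2, 64.8 and 65.2 FPKM in NCD-veh, HFD-veh, then HFD-ncls WAT, nearly level across groups as Mrc1 was.

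For the members that rose with HFD in WAT, other genes came first. Cd84 (a leukocyte adhesion receptor, r = 0.995), Cotl1 and Mki67 (Ki-67, a protein of dividing cells) were nearest to Cd68. Cenpe (r = 0.994), Mogat2 and Melk were nearest to Itgax, Ndc80 (r = 0.983), Kcnn4 and Ube2c to Trem2, and Incenp (r = 0.991), Ncaph and Kcnh2 to Gpnmb. Cenpe, Melk and Ndc80 were at most 1.15 FPKM in any library, so that their r rests on low values. Mki67 was at 1.73, 6.77 and 6.82 FPKM in NCD-veh, HFD-veh, then HFD-ncls WAT and Ube2c, an enzyme of mitotic exit, at 3.19, 11.6 and 11.6 FPKM. Both were at most 0.872 FPKM in every other library.

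Adam8, a membrane metalloprotease of leukocytes, was nearest to Lgals3 (r = 0.988), with Nck1 also near, and second to Tnip3 (r = 0.989) for Mmp12, before Kcnj14. It was at 3.0, 26.3 and 33.8 FPKM in WAT and at 0.0743, 1.62 and 0.130 FPKM in BAT, with HFD-veh the high library there as for Lgals3. For Cd163 the nearest were Zfp207 (r = 0.986), Fam178a and Pias1. For Clec4f they were Mug-ps1 (r = 0.999), BC089597 and Pla2g12b, all of them at most 0.364 FPKM outside liver. Among the members themselves, r with Emr1 was 0.987 for Cd68, 0.985 for Mrc1 and 0.825 for Gpnmb, and -0.09 for Clec4f.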

How the data were processed

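Snap-frozen WAT, BAT, liver and quadriceps muscle from mice of the 3 groups had been extracted with TRIzol and sequenced on an Illumina platform. The authors aligned the reads to mm9 with TopHat and ran Cufflinks on RefSeq genes, and deposited 1 FPKM value per symbol and library for 12 libraries. Each column was assigned by its header to the sample of that title, the columns headed as drug being those of narciclasine. No counts were used here, so depth was only approximated from the lowest FPKM steps of genes with 1 annotated transcript.

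The members and gene lists were chosen with earlier results of these data known. Differences were log2 ratios with a pseudocount of 0.1, for genes at 1 FPKM or more in at least 1 library compared, and calls were set at 2-fold. FPKM favours no gene for its length, but a highly expressed gene in an organ lowers all other values there, and a pseudocount shrinks the differences of low genes. The 86 symbols without a value in at least 1 library were left out where it was missing. All 10 members were named. Each of 20 related lists gave up to 4 genes with the largest diet difference in WAT, and each member the 3 genes of highest r. A gene under this rule is not reported here. In liver, Kupffer genes past 2-fold were also named, after their values were seen, as were C6, Nr1h3, Apoe, Arg1 and Ucp1. Of 240 list genes 236 were found, and Adgre4, Spi1, Hba-a1 and Hba-a2 were not analysed here. Shares of liver and muscle RNA were medians over hepatocyte and muscle genes of the FPKM relative to the source organ. Python 3.11.15, numpy 2.4.6, pandas 2.3.3 and matplotlib 3.10.9 were used, and the calls and shares were tested on simulated data. Positions are from GENCODE M1. With 1 library per group no test across replicates could be run.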

Additional observations from a re-analysis of the deposited data

Results flagged for a closer look

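Several members moved in opposite directions in the organs under the same comparison. With 1 library per group, none of these differences between organs was tested. For HFD-veh against NCD-veh, the log2 difference in WAT minus that in liver was 1.28 for Emr1, 2.56 for Cd68 and 3.05 for Lgals3. The difference in BAT minus that in liver was 1.88 for Cd68 and 3.74 for Lgals3, and for Lgals3 liver minus muscle was -2.03. All of these genes were above chow in the fat or muscle library and below it in liver.

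For HFD-ncls against HFD-veh, the difference in WAT minus that in BAT was 1.94 for Cd68, 2.10 for Trem2, 2.27 for Gpnmb and 3.14 for Lgals3. For Cd68, BAT minus muscle was -2.13. In each of these the BAT library was the lower one with ncls. The BAT differences of Trem2 and Gpnmb rest on levels of at most 2.22 FPKM.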

How the results depend on the processing

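Member differences, counts and medians of the diet and the ncls comparison were recomputed with a pseudocount of 1 or 0.01, without a minimum FPKM and with a minimum of 5 FPKM. They were also recomputed after rescaling by the median ratio and after subtraction of liver and muscle RNA shares. The comparison of HFD-ncls with NCD-veh and the counts of the related lists were not recomputed. Over 260 recomputed member differences 3 calls changed and none changed its sign. With a pseudocount of 1, Gpnmb with diet in BAT came to 0.95, Trem2 with ncls in BAT to -0.77 and Lgals3 with diet in muscle to 0.81, all within 2-fold, and the number of members past 2-fold with diet in muscle was 0 while the median with ncls in BAT was -0.89. With a minimum of 5 FPKM only 2 members remained in BAT, with a median of 2.11 with diet and -2.34 with ncls, where 2 passed 2-fold, and no member was left in muscle, so that no value could be given there. Without a minimum, 1 member passed 2-fold in liver with diet and 1 with ncls (Trem2 in both, on few fragments), 3 in muscle with diet and 2 in muscle with ncls. The other 83 recomputed counts and medians stayed within 1.5 times the reported count or fold.

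Counts over all genes depended more on these choices. In WAT the 640 genes higher and 472 lower with diet became 390 and 230 with a pseudocount of 1, 331 and 216 with a minimum of 5 FPKM and 1087 and 846 without a minimum, and the 181 higher and 26 lower with ncls became 77 and 14, 61 and 7, and 568 and 128. In BAT the 238 higher and 210 lower with diet became 105 and 113, 103 and 104, and 486 and 430, and the 27 higher and 176 lower with ncls became 12 and 102, 10 and 70, and 167 and 448. With RNA shares subtracted, the muscle counts with diet went from 301 and 93 to 120 and 108, and the BAT counts with diet to 270 and 158. Rescaling moved the median of all genes by less than 0.1.

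No paired analysis was possible because each organ and group had 1 library. Depth limits the members below 1 FPKM, which rest on at most about 115 fragments.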

Other observations

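Saa3, an acute-phase gene of the inflammatory list, went in opposite directions in WAT and liver. It was at 7.56, 61.8 and 132 FPKM in NCD-veh, HFD-veh, then HFD-ncls WAT and at 419, 7.67 and 12 FPKM in liver. The inflammatory list summed to 436, 24.6 and 26.7 FPKM in liver, so that most of the chow sum was this gene.

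Neutrophil genes in WAT did not move together. S100a8 was at 4.19, 34.7 and 35.5 FPKM and S100a9, which encodes its binding partner, at 2.62, 5.07 and 0.523 FPKM.

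B lymphocyte genes in WAT were low in HFD-veh and nearer to chow in HFD-ncls. Ms4a1 (CD20) was at 1.56, 0.243 and 0.988 FPKM and Cd79a, a subunit of the B cell receptor, at 3.82, 0.922 and 2.91 FPKM.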
